A study of Mus musculus with 2 samples.

Results

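The genes examined here encode 5 receptors (Bmpr1a, Bmpr1b, Bmpr2, Acvr1 and Acvr1c), 3 secreted antagonists (Nog, Chrd and Grem1) and 2 intracellular Smads (Smad1 and Smad6) of the bone morphogenetic protein (BMP) pathway and its close relatives. Acvr1c is counted with the receptors here and in every receptor total, although it is known to serve activins and Nodal rather than BMPs. The genes were taken as a named list of 10 genes out of 20807 protein-coding genes on the 19 autosomes, and each was given a window that ran from 50 kb before to 50 kb after the gene as annotated in GENCODE release M21 (mouse build mm10). Chromatin accessibility was measured by ATAC-seq, in which the Tn5 transposase cuts and tags open DNA, in chondrocytes from the proximal end (hip side) and the distal end (knee side) of the femur of FVBNJ mouse embryos at E15.5, with no treatment or engineered allele in either group. For each end, cartilage from right and left femora was pooled over one litter, 8 embryos on average, and 2 biological replicates were merged by the authors into 1 list of peaks that passed an irreproducible discovery rate of 0.05. The lists give only the position of each peak, so a peak has no height and no replicate error, its read depth was not analysed here, and no difference between the ends could be tested.

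The proximal list held 28257 peaks and the distal list 27958, with median widths of 711 and 691 bp and none on the X or Y chromosome. Peaks of both lists that shared at least 1 bp were merged into 1 region, which gave 32388 regions. A region with a peak of 1 list only is called proximal-only or distal-only, or end-specific for either kind. The dissected ends can hold cells other than chondrocytes, and the labelled cell type was checked at marker genes: 7 of 11 chondrocyte markers had a promoter peak in both lists, Sox5, Comp and Col11a2 had one in 1 list, and Matn1 had none. Of all autosomal protein-coding genes, 55.0% had such a peak, so this count says little about cell identity. Of 4 markers per cell type, none of osteoblast or muscle, 1 each of blood, endothelium and epithelium, and 2 of nerve had a promoter peak in both lists, and the endothelial marker Tek had one in the distal list only. An open promoter is not a measure of expression, and in bulk cells fewer cells with an open site and a less open site in every cell cannot be told apart.

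BMPs are secreted ligands that bring type I and type II receptors, both of them transmembrane kinases, into one complex. The type II receptor then activates the type I receptor, which phosphorylates receptor-regulated Smads, and these move to the nucleus and act on target genes. Secreted antagonists bind the ligand outside the cell and keep it from its receptors. In the growth plate, BMP signalling drives the formation of cartilage and the division and maturation of chondrocytes.

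The 10 windows together held 51 of the 32388 regions, made of 46 proximal and 42 distal peaks. Of these, 34 were present at both ends, 10 were proximal-only and 7 were distal-only. The proximal-only share was 19.6%, beside 14.1% over all regions, and the distal-only share was 13.7%, beside 12.9%. Each region was called promoter where it reached within 1 kb of an annotated start of the gene, gene body where it lay elsewhere in the gene, and flank otherwise. This gave 12 promoter, 20 gene-body and 19 flanking regions. The median was 3.0 regions per gene, among the members and over all protein-coding genes.

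Every promoter region of the members was open at both ends, while many regions elsewhere were not. All 12 promoter regions were present in both lists, so 9 of the 10 genes had a promoter peak at both ends, as did 55.0% of all autosomal protein-coding genes. Nog was the exception. Of all regions within 1 kb of any start site, 12.2% were end-specific. Among the gene-body regions 10 of 20 were end-specific, with 7 proximal-only and 3 distal-only, while 39.1% of all regions in protein-coding genes over 1 kb from any start were. Of the 19 flanking regions, 3 were proximal-only and 4 distal-only, and no share over the flanks of all genes was computed. Counted over every member region farther than 1 kb from any annotated start, 16 of 33 (48.5%) were end-specific, beside 38.0% over all such regions.

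**Figure D1:**
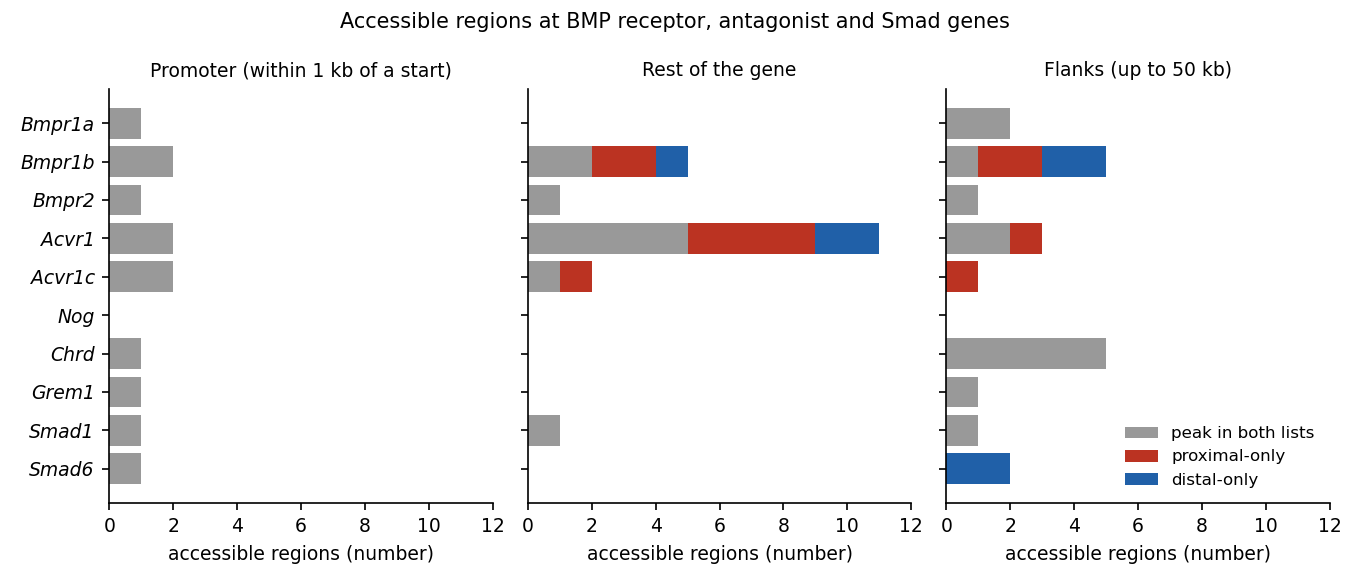
Number of accessible regions (horizontal axis) at each of the 10 genes, for promoters, the rest of the gene and flanks, with colours for peaks in both lists, proximal-only and distal-only. Every promoter bar is a peak of both lists, and end-specific regions appear at Bmpr1b, Acvr1, Acvr1c and Smad6, with 7 each at Bmpr1b and Acvr1; the 2 regions that lie in both the Acvr1 and the Acvr1c window are drawn at each gene.

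The 3 classes of gene differed in where their regions lay. The receptors had 37 regions, of which 8 were at promoters, 19 in gene bodies and 10 in flanks. The antagonists had 8, with 2 at promoters, none in a gene body and 6 in flanks, and the Smads had 6, with 2 at promoters, 1 in a gene body and 3 in flanks. The receptor genes are 90443 to 332290 bp long and the antagonist genes 1695 to 12483 bp, which leaves the antagonists little gene body to hold a region. Per 100 kb of whole window the counts were 2.83 regions for receptors, 2.47 for antagonists and 1.82 for Smads. The median protein-coding gene had 2.07. End-specific regions made up 15 of the 37 at receptors (10 proximal-only, 5 distal-only), none of the 8 at antagonists and 2 of the 6 at Smads, both distal-only. The classes also differ in how many regions lie over 1 kb from any start, 28 at receptors, 3 at antagonists and 2 at Smads, and of these 15, none and 1 were end-specific, beside 38.0% over all such regions. Receptor values rested on a pair of genes. The windows of Acvr1 and Bmpr1b held 28 regions and 14 of the 17 end-specific ones, and the other 8 genes held 23 further regions with 3.

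Acvr1 encodes the type I receptor ALK2, whose activating mutations cause bone to form in soft tissue. The gene (ENSMUSG00000026836.15, chr2:58388644-58567157, minus strand) had more regions in its window than any other member, 16, made of 14 proximal and 11 distal peaks. That is 5.74 per 100 kb, where 90% of protein-coding genes had 4.94 or fewer. Of all protein-coding genes, 99.8% had fewer regions than Acvr1. It had 9 shared, 5 proximal-only and 2 distal-only regions. These are counts of the window, which also holds the first promoter of Acvr1c. Several of the regions are nearer to a coding start of another gene than to one of Acvr1.

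Of these 16 regions, 2 were at its own promoters. The 5′ promoter peak, at chr2:58567028-58567757, was 703 bp wide in the proximal list and 722 bp in the distal list, and it also covered the start of Upp2, a uridine phosphorylase gene that runs the other way from a start 141 bp off. A second promoter peak, at chr2:58515832-58516506, lay 50885 bp inside the gene at the start of 2 transcripts, one of them coding, and was 498 bp wide proximally and 675 bp distally. The first start and this internal start were thus open at both ends, and at the internal one the distal peak was the wider. Coding starts annotated 329 and 331 bp into the gene lay 200 to 210 bp outside the 5′ promoter peaks of the 2 lists. A start annotated 28719 bp into the gene was in neither list, with the nearest peak 7723 bp away.

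Inside Acvr1, 4 regions were proximal-only. The first in the direction of transcription lay in intron 3 (chr2:58513117-58513622, 506 bp), 2650 bp past the internal start site and 2210 bp from the nearest distal peak. Another region of intron 3 (chr2:58505415-58506158) was 744 bp wide and 9674 bp from the nearest distal peak. The third was in intron 10 (chr2:58449125-58449445, 321 bp), and the last (chr2:58402121-58402542, 422 bp) was past the end of all coding transcripts. These 4 had no peak of the other end within 2 kb, and 3 of them were in introns of the coding transcript.

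Acvr1 had 2 distal-only regions. One was in intron 2 (chr2:58520843-58521179, 337 bp), 4571 bp before the internal start and 4435 bp from the nearest proximal peak. The other (chr2:58443210-58443635, 426 bp) overlapped an exon of a noncoding transcript of Acvr1. The internal start of Acvr1 therefore had a distal-only region on its upstream side and a proximal-only region on its downstream side, while the peak at the start was itself present at both ends.

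The remaining gene-body regions of Acvr1 were shared. In intron 1 the region at chr2:58546161-58547352 was 1139 bp wide proximally and 831 bp distally. In intron 4 a pair of regions had widths of 407 and 408 bp and of 950 and 853 bp in the proximal and distal lists. The last pair lay beyond the coding transcripts, and one of them, at chr2:58425879-58426655, is 100% repeat-masked in its central 300 bases, where short reads can be hard to place. Only 1 of the 11 gene-body regions overlapped an annotated Acvr1 exon.

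In the upstream flank, 1 region was proximal-only. It lay 12863 bp before Acvr1 (chr2:58580020-58580794) and inside Upp2, was 775 bp wide, and was 8693 bp from the nearest distal peak. It was the widest proximal-only peak of Acvr1. A shared region of 658 bp proximally and 603 bp distally followed 22330 bp upstream of the gene.

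The sequences below show the letters found in end-specific regions of Acvr1, read from the RefSeq GRCm38.p6 genome on the plus strand. Capitals mark consensus letters of 3 transcription factor families that act in cartilage. For AP-1 these are TGAGTCA, which reads as TGACTCA on the opposite strand. For the RUNX core they are TGTGGT, and the capitals show its reverse complement where the match is on the minus strand. For the SOX core they are ACAAAGG and also the variant that has ACAATGG in its place. They were searched on both strands in the central 300 bases of each region.
Acvr1 upstream, proximal-only, chr2:58580353-58580499: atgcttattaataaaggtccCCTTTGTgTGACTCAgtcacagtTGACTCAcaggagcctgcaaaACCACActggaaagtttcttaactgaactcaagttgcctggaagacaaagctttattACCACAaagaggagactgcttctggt
Acvr1 intron 3, proximal-only, chr2:58513431-58513477: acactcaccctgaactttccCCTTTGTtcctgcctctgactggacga
Acvr1 intron 3, proximal-only, chr2:58505688-58505936: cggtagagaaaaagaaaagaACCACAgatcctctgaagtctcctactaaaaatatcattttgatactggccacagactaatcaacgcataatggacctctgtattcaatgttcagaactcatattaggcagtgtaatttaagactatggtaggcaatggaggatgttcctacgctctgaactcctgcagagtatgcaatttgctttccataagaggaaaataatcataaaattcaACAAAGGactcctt
Acvr1 intron 10, proximal-only, chr2:58449247-58449292: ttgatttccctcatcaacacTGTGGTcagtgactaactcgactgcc
Acvr1 past its coding end, proximal-only, chr2:58402210-58402256: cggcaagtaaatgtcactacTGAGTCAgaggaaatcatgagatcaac
Acvr1 intron 2, distal-only, chr2:58520952-58520998: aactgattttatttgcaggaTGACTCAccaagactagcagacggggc

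The upstream proximal-only region held the letters of all 3 families, with 2 AP-1, 2 RUNX and 1 SOX match. Across the 7 end-specific regions of Acvr1, 3 held AP-1 letters, 3 RUNX letters and 3 SOX letters, and the distal-only region in the noncoding exon held none. Of all end-specific regions over 1 kb from a start, 35.9% held AP-1 letters, 25.8% RUNX letters and 6.91% SOX letters. These are matches of letters, and binding by any factor was not measured.

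**Figure D2:**
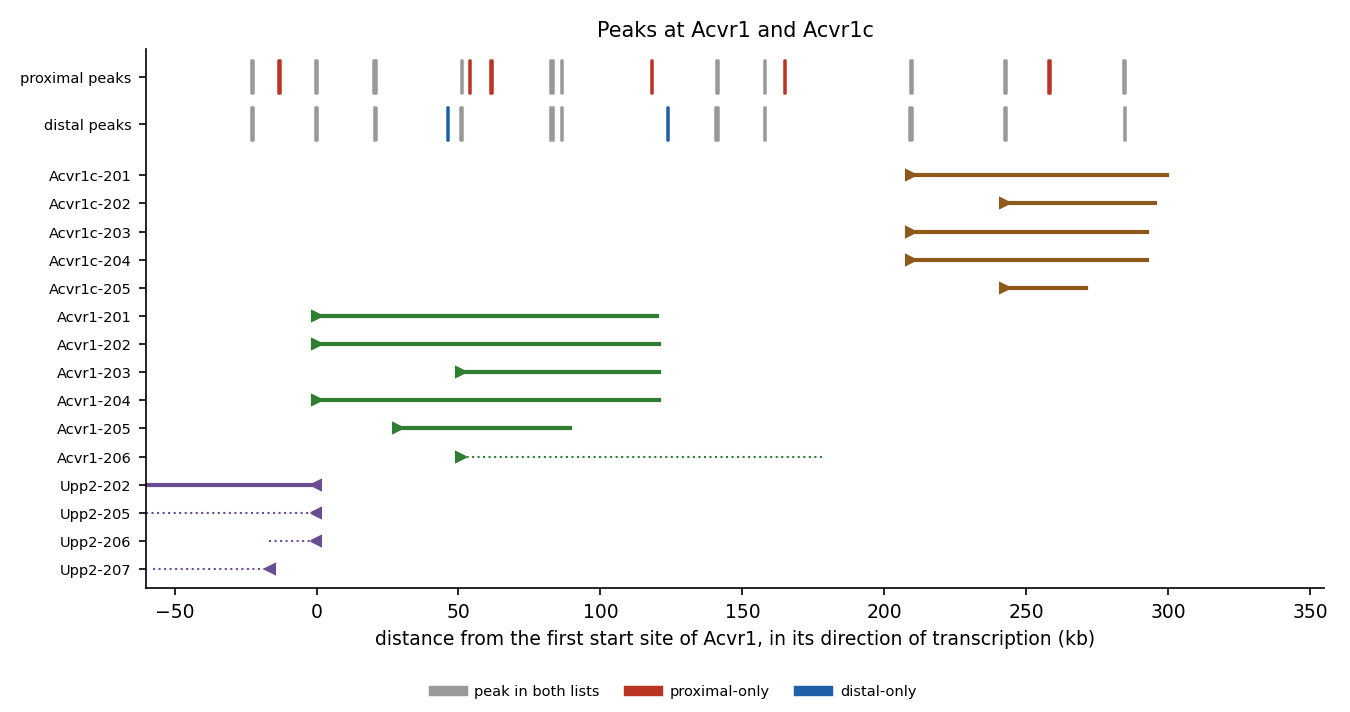
Peaks of each list at Acvr1, Acvr1c and the start of Upp2, by distance in kb from the first start of Acvr1 in its direction of transcription; peaks are drawn to scale with a thin outline, lines are annotated transcripts (dotted if not protein-coding) and arrowheads their starts. Of the red proximal-only peaks, the 5 from the left are those of Acvr1 and the last lies in Acvr1c; the blue marks are the 2 distal-only peaks of Acvr1.

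Acvr1c encodes ALK7, the type I receptor for activins and Nodal named above. It follows Acvr1 on the same strand (ENSMUSG00000026834.13, chr2:58267453-58357895), starting 30.7 kb after the annotated end of Acvr1. Its window held 5 regions, made of 5 proximal and 3 distal peaks. Of these, 3 were shared and 2 were proximal-only, and none was distal-only.

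Both promoters of Acvr1c were in peaks at both ends. The first (chr2:58357335-58358327) was 947 bp wide proximally and 934 bp distally, and the second (chr2:58324388-58325005), 33088 bp into the gene, was 618 and 615 bp wide. Intron 6 held a shared region of 657 and 532 bp. Intron 2 held the proximal-only region of the gene (chr2:58308828-58309357, 530 bp), which was 15034 bp from the nearest distal peak.

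The other proximal-only region of the Acvr1c window was the one past the coding end of Acvr1, 44226 bp upstream of Acvr1c. That stretch belongs to Acvr1 only through that noncoding transcript, which runs 57.8 kb past the last coding transcript. Measured from the coding transcripts, the genes are 88.5 kb apart and 4 regions lie between them, 2 shared, 1 proximal-only and 1 distal-only. These 4 are nearer to Acvr1c or to Gm17409, a predicted coding gene within Acvr1, than to a start of Acvr1, and which gene any of them acts on was not measured. The Acvr1 regions of introns 4 and 10 were also nearest to the coding start of Gm17409, and both upstream flank regions to that of Upp2. For these too, the gene they act on was not measured. With each region counted once, the Acvr1 and Acvr1c windows held 19 regions, of which 11 were shared, 6 proximal-only and 2 distal-only.

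Bmpr1b encodes ALK6, a type I receptor known for its part in the cartilage of the digits. It is the longest member (ENSMUSG00000052430.15, chr3:141837136-142169425, minus strand) and had 12 regions, 9 proximal and 8 distal peaks, at 2.78 per 100 kb. Of all protein-coding genes, 99.0% had fewer regions. It had 5 shared, 4 proximal-only and 3 distal-only regions.

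The shared regions of Bmpr1b were 2 promoters, a pair in the 3′ part of the gene, and 1 upstream. The 5′ promoter peak (chr3:142168420-142169697) was 1222 bp wide proximally and 1203 bp distally. The promoter peak 187161 bp into the gene (chr3:141981627-141982473) was 847 and 799 bp wide. The start of 2 further transcripts, 237902 bp in for the first of them, lay in no peak. Both shared regions in the 3′ part, of 488 and 382 bp and of 521 and 447 bp, overlapped coding exons, and they were the only gene-body regions of the members to do so.

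The proximal-only regions of Bmpr1b lay in the gene and past its 3′ end. Intron 1 held one of 433 bp (chr3:142071603-142072035), which was 89163 bp from the nearest distal peak. Intron 2 held one of 807 bp (chr3:141906399-141907205), the widest end-specific peak of all members, which overlapped a 5′ UTR exon of a transcript annotated for nonsense-mediated decay. The others were 17334 bp (chr3:141819243-141819802, 560 bp) and 25410 bp (chr3:141811442-141811726, 285 bp) downstream.

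The 3 distal-only regions of Bmpr1b were 306 to 392 bp wide, and the proximal-only ones 285 to 807 bp. One of 392 bp (chr3:141838843-141839234) overlapped the 3′ UTR, one of 306 bp (chr3:141831199-141831504) was 5632 bp downstream and one of 354 bp (chr3:142209713-142210066) was 40288 bp upstream. The last 4 regions on the 3′ side of Bmpr1b were thus all end-specific, 2 distal-only next to the 3′ end and then 2 proximal-only, with 11397 bp between the inner pair. Consensus letters occurred in 3 of the 7 end-specific regions, with AP-1 in 1, RUNX in 2 and SOX in 1. Over all end-specific regions farther than 1 kb from a start, the shares were 35.9%, 25.8% and 6.91%. The downstream region shown here held both an AP-1 and a SOX match, on the plus strand of GRCm38.p6 and with capitals as above.
Bmpr1b downstream, proximal-only, chr3:141819373-141819614: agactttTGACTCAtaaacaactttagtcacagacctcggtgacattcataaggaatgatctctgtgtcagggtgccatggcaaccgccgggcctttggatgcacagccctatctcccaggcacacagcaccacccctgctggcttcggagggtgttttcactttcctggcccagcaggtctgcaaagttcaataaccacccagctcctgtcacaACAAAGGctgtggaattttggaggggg

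**Figure D3:**
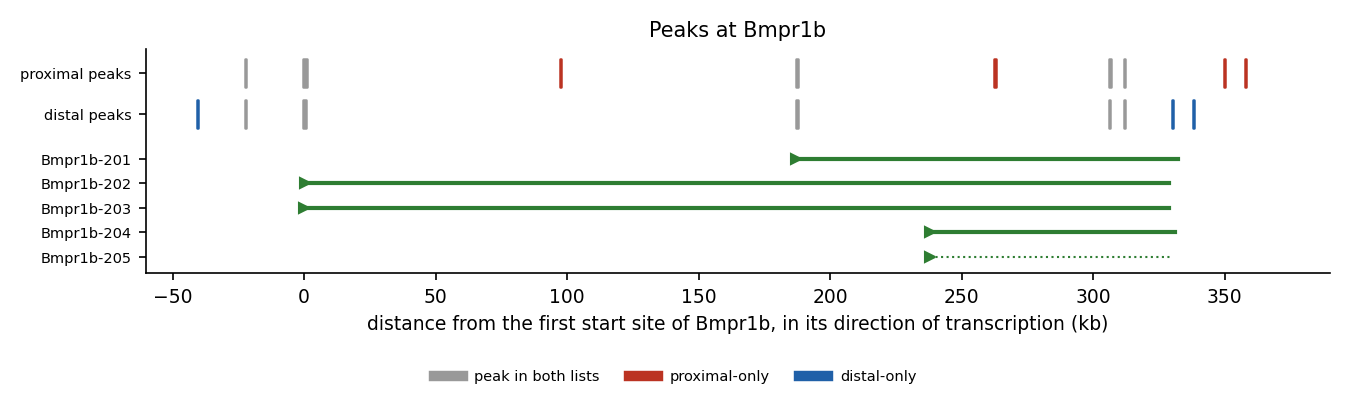
Peaks of each list at Bmpr1b by distance in kb from its first start in its direction of transcription, with its 5 annotated transcripts (dotted if not protein-coding; arrowheads mark starts). Grey peaks are in both lists, and past 330 kb the order is 2 distal-only and then 2 proximal-only peaks.

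The other receptor genes had no end-specific region. Bmpr1a (ENSMUSG00000021796.15, chr14:34410734-34503341), which encodes the type I receptor ALK3, had 3 shared regions. Its promoter peak was 1575 bp wide in the proximal list and 1047 bp in the distal list, the highest ratio of widths among the members (1.5). Its other regions were 46472 bp downstream and 45118 bp upstream, at widths of 1140 and 1067 bp and of 1294 and 1254 bp.

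Bmpr2 (ENSMUSG00000067336.6, chr1:59763400-59879014), which encodes a type II receptor of BMPs, also had 3 shared regions. The promoter peak was 1720 bp wide proximally and 1702 bp distally. A region in intron 3 was 370 and 436 bp wide, and the third lay at the start of the neighbour Fam117b. Bmpr2 had 1.39 regions per 100 kb, the lowest value among members that had any, and Bmpr1a had 1.56.

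The antagonists ranged from no region to a dense group. Nog (ENSMUSG00000048616.4, chr11:89300638-89302332) encodes noggin, which binds BMPs with high affinity. No peak of either list lay within 50 kb of it, as for 13.6% of all protein-coding genes. The nearest peaks were 112806 bp downstream in the proximal list and 112762 bp in the distal list. On the upstream side the nearest was 237385 bp away in the proximal list and 204275 bp in the distal list. Nog was thus in a gap of over 300 kb in both lists.

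Chrd (ENSMUSG00000006958.14, chr16:20733127-20742384) encodes chordin, an extracellular BMP-binding protein. It had 6 regions, all shared, made of 7 peaks of each list, at 5.49 per 100 kb. Its promoter peak (chr16:20732666-20733797) was 1132 bp wide proximally and 998 bp distally and also reached within 1 kb of a start of Thpo, the thrombopoietin gene. All 5 other regions were upstream, between 8296 and 39213 bp away, and 3 of them were at start sites of Fam131a, Clcn2 or Polr2h. With Thpo counted, 4 of the 6 regions reached within 1 kb of a start of another gene.

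Grem1 (ENSMUSG00000074934.3, chr2:113746164-113758646) encodes gremlin 1, which binds BMPs as noggin and chordin do. It had 2 regions, both shared. The promoter (chr2:113757275-113759156) was covered by 1 distal peak of 1868 bp and by 2 proximal peaks of 913 and 846 bp. It was the only member promoter covered by unequal numbers of peaks. The other region, 39811 bp upstream, was 338 bp wide proximally and 594 bp distally, the lowest ratio of widths among the members (0.569).

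Smad1 (ENSMUSG00000031681.16, chr8:79338395-79399518) encodes a Smad that BMP type I receptors phosphorylate. Its 3 regions were all shared. The promoter peak was 1101 bp wide proximally and 869 bp distally, the region in intron 1 was 406 and 518 bp wide, and the third lay at the start of Mmaa, 42847 bp downstream.

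Smad6 (ENSMUSG00000036867.7, chr9:63953076-64022059) encodes an inhibitory Smad that BMP signalling itself induces. Its promoter peak was shared, 1475 bp wide proximally and 1571 bp distally. The other 2 regions were distal-only and downstream, at 10904 bp (chr9:63941734-63942172, 439 bp) and 24963 bp (chr9:63927630-63928113, 484 bp, within 1 kb of the start of the noncoding RNA gene Gm36033). They were 44848 and 30744 bp from the nearest proximal peak. Smad6 was the one member with more distal than proximal peaks, 3 against 1. The nearer region held an AP-1 match, shown in capitals on the plus strand of GRCm38.p6.
Smad6 downstream, distal-only, chr9:63942049-63942095: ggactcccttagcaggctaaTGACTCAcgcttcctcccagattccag

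End-specific regions were thus found in the windows of 4 genes. A proximal-only region was present at 3 members (Acvr1, Acvr1c and Bmpr1b), and 24.6% of all protein-coding genes had one. A distal-only region was present at 3 members (Acvr1, Bmpr1b and Smad6), against 28.1% of all. Both kinds were present at Acvr1 and Bmpr1b, and at 8.47% of all genes. Each of these counts is out of 10 genes, so their shares can be read only coarsely. Acvr1 and Bmpr1b each had 7 end-specific regions in the window, a number that 36 protein-coding genes (0.173%) reached or passed. At Acvr1, some of the 7 were nearer to a coding start of another gene. The members were chosen with earlier results of these data known, so this rank only describes them and was not tested.

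Gene length bears on that count, since a longer gene has a longer window. Of the 1098 protein-coding genes at least as long as Acvr1, 31 (2.82%) had 7 or more end-specific regions, and their median was 2.00 with a 90th percentile of 4.00. For regions of any kind, these long genes had a median of 5.00 and a 90th percentile of 12.0, and 3.28% had 16 or more. Acvr1 was therefore in the upper part of the range also among long genes. Bmpr1b was at their 90th percentile for all regions, but it is 332290 bp long against 178514 bp for Acvr1. The set is thus not matched to its length. Per 100 kb of window, Bmpr1b had 2.78 regions, beside a median of 2.07 and a 90th percentile of 4.94 over all protein-coding genes.

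**Figure D4:**
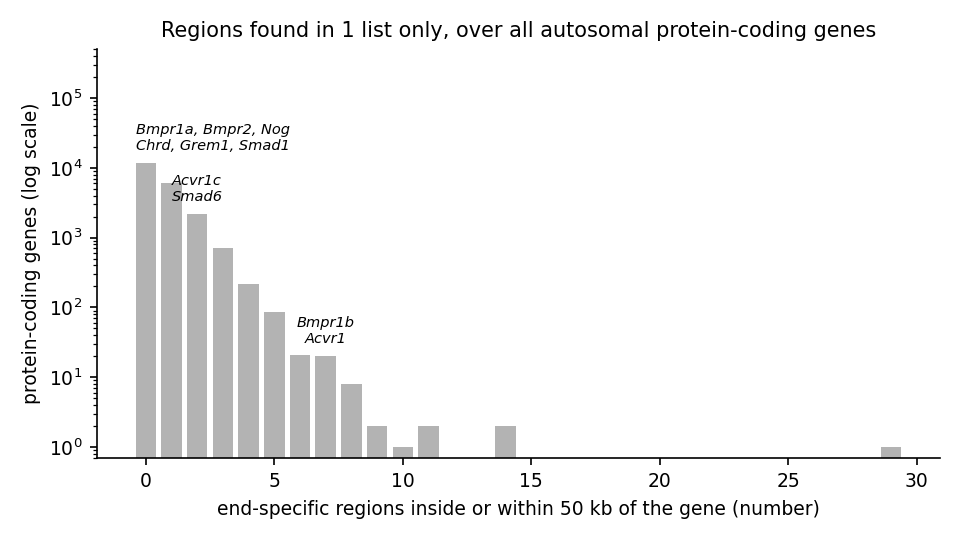
Number of protein-coding genes (log scale) by the number of end-specific regions in their window, with the 10 members named above their bar. Of the members, 6 are at 0, Acvr1c and Smad6 at 2, and Acvr1 and Bmpr1b at 7, where 36 genes have 7 or more.

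Peak width is the one size the lists give. Among the 32 member regions with 1 peak of each list, the proximal peak was the wider in 18 and the distal in 14, and the median ratio of proximal to distal width was 1.01, with a range of 0.569 to 1.5. Over all 23450 such regions the median was 1.02. The proximal peak was the wider in 57.1% of them, beside 56.2% of the member regions. Member promoters had a wider proximal peak in 8 of 11, and the rest in 10 of 21. This split by place was not made over all regions. Proximal-only peaks of the members had a median of 518 bp (285 to 807 bp) and distal-only peaks 392 bp (306 to 484 bp), beside 510 and 497 bp over all such peaks. Shared member peaks had medians of 830 bp proximally and 799 bp distally, so the end-specific ones were the narrower, as they were over all regions.

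**Figure D5:**
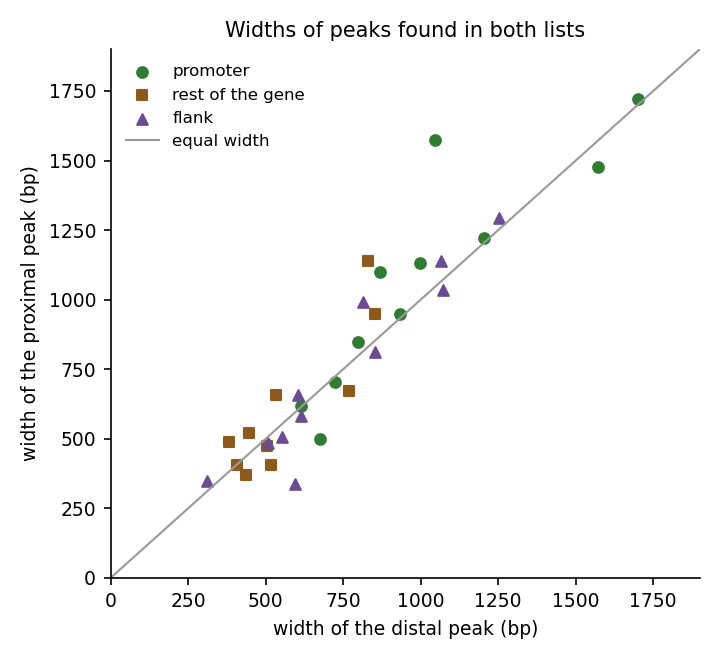
Width in bp of the proximal peak against the distal peak for the 32 member regions with 1 peak of each list, by place in the gene; the line marks equal width. Points lie on both sides of the line, and the promoter point farthest above it is Bmpr1a, at 1575 bp against 1047 bp.

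The sequence of the regions followed their place. The 12 promoter regions had a median GC content of 69.3% and a median ratio of observed to expected CpG of 0.753. The 17 end-specific regions had a median GC content of 43.7% and a CpG ratio of 0.238. AP-1 letters occurred in none of the 12 promoter regions and in 12 of the 33 regions over 1 kb from any start (36.4%, beside 37.5% of all such regions). RUNX letters occurred in 8 of those 33 (24.2%, beside 25.4%). Both were thus about as frequent as elsewhere.

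SOX letters occurred in 4 of the 51 member regions (7.84%, beside 6.30% of all regions). All 4 were proximal-only, 3 at Acvr1 and 1 at Bmpr1b, out of 10 proximal-only regions, and none was among the 7 distal-only or the 34 shared ones. Of all end-specific regions over 1 kb from a start, 6.91% held them. That share pools proximal-only and distal-only regions. No share was computed for each kind, or for shared regions, over the whole lists. The split among the members therefore has no like comparison. The SMAD palindrome GTCTAGAC occurred in 1 member region (0.272% of all regions). It was the shared region of Bmpr1b that is centred in intron 8 and also overlaps a coding exon. The GC-rich SMAD letters GGCGCC occurred in 7 (13.7%, beside 13.2% of all regions), 4 of them promoters. With counts this small, a difference of a few regions moves each share by several percent.

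Promoter sequences of RefSeq (build GRCm38.p6, 250 bases before to 50 after a start) were matched by symbol for 9 of the 10 genes, with 12 starts in all. Of all 31396 such promoters, 36.0% overlapped a peak of both lists. The share was 80.2% of the 9703 CpG-rich ones, with a GC content of at least 55% and a CpG ratio of at least 0.6, and 16.2% of the others. Most member promoters were CpG-rich and overlapped a peak at both ends, with CpG ratios from 0.792 at Grem1 to 1.06 at Acvr1 and Smad1. At Acvr1 the overlap was partial, and the RefSeq start itself lay 200 bp outside the proximal peak and 208 bp outside the distal one.

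The internal promoters of Acvr1c and Bmpr1b were open at both ends although they are poor in CpG. The ratio was 0.105 at the second start of Acvr1c, lower than at all but 13.8% of promoters, and 0.286 at the internal start of Bmpr1b. A pair of further Bmpr1b promoters with like ratios, 0.291 and 0.258, were in no peak. At Bmpr2 the RefSeq promoter (CpG ratio 0.885) overlapped no peak. RefSeq places that start farther into the gene than GENCODE does, and the shared promoter peak ended just before this promoter. Stretches of 150 bases before the start are shown for both internal promoters and, for comparison, for a CpG-poor one of Bmpr1b in no peak and the CpG-rich ones of Chrd, Grem1 and Smad6. Each is written 5′ to 3′ on the strand of its gene, minus except for Chrd, with capitals marking CG.
Acvr1c second start, chr2:58324808-58324957: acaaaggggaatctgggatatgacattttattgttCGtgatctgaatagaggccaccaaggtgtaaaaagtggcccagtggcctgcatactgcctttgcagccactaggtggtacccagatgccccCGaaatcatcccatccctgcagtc
Bmpr1b internal start, chr3:141982265-141982414: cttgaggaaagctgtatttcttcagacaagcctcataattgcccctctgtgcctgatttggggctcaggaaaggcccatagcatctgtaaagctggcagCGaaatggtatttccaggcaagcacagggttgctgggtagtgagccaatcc
Bmpr1b start in no peak, chr3:141931589-141931738: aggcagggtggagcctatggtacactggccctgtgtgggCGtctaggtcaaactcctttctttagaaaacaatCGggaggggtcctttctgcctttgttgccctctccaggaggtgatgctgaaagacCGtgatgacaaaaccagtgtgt
Chrd, chr16:20732977-20733126: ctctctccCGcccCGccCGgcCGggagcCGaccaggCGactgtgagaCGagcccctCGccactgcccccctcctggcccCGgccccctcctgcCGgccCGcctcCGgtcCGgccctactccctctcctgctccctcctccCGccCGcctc
Grem1, chr2:113758649-113758798: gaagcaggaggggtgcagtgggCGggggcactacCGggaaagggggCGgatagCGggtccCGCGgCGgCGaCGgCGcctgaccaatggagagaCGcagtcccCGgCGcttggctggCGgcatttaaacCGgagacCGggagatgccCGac
Smad6, chr9:64022060-64022209: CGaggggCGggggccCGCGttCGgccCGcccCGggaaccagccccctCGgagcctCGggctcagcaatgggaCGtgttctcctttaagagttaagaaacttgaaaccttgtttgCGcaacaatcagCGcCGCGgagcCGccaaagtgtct
The 6 stretches hold 2, 1, 3, 15, 17 and 15 CG pairs in this order, and the first 2 and last 3 were in peaks of both lists.

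Of 42 other genes of the pathway, 31 (73.8%) had a promoter peak in both lists, beside 55.0% of all protein-coding genes. This included all 11 Smads and intracellular regulators, such as Smad4, the partner of the receptor-regulated Smads, and Smad7, an inhibitory one. Of 9 receptors and co-receptors, 6 had one in both lists, and Acvrl1, Eng and Hjv had none; Acvrl1 and Eng are known for their role in vessels. Of 14 extracellular regulators, 7 had one in both lists. Fst, which encodes the activin-binding follistatin, and Sostdc1 had a promoter peak in the proximal list only, Chrdl2 and Dand5 in the distal list only, and Cer1, Nbl1 and Sost in neither list. Of 8 transcription factor genes 7 had one in both, and Dlx5, which acts in chondrocyte maturation, had one in the distal list only.

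Every one of the 42 had a region in its window, with a median of 4.0. A proximal-only region was present at 14 of the 42 and a distal-only region at 20, beside 24.6% and 28.1% of all protein-coding genes. No gene of this list had more than 4 end-specific regions, and Acvr1 and Bmpr1b had 7 each. Of all protein-coding genes only 0.173% had 7 or more, so their absence among 42 genes says little. Gene length was not matched here. Of the 11 genes of this list without a promoter peak in both lists, 7 were extracellular regulators.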

How the data were processed

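ATAC-seq libraries of the proximal and distal femoral ends were processed by the authors. Per the labels and the study's methods, reads were aligned to mm10 with Bowtie2 (2.2.8), duplicates were removed, peaks were called with MACS2 (2.1.1 in the submitters' processing notes; the study's methods name another version) and peaks of 2 replicates were combined at an irreproducible discovery rate of 0.05. The deposited lists hold chromosome, start and end only, and starts were read as counted from 0. Depth is not in the lists, so no interval or test was given.

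Peaks were merged across lists at 1 bp of overlap (Python 3.11.15, NumPy 2.4.6) and assigned to windows of 50 kb around GENCODE M21 genes. A promoter region reached within 1 kb of any annotated start of the gene. The same counts were made for all 20807 autosomal protein-coding genes. Letters were searched in 300 bases around each centre in the RefSeq GRCm38.p6 genome, whose chromosomes are those of mm10. Figures were drawn with matplotlib 3.10.9. The assignment was checked on simulated peaks. The members, gene lists, markers and consensus letters were chosen with earlier results of these data known, and the division of the pathway list by role was made afterwards. Text names the 10 members, pathway genes with a promoter peak in 1 list or neither, genes whose coding start is nearest to an end-specific peak and genes whose start lies in a member region; Smad4, Smad7 and Gm36033 were added after their values were seen. Alternatives were flanks of 20 and 100 kb, promoters of 3 kb, a reciprocal overlap of 50%, protein-coding starts only, wide peaks only and assignment by nearest start.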

Additional observations from a re-analysis of the deposited data

How the results depend on the processing

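With 1 list per end, no value has a replicate error, and a peak missing from a list may be a site just short of the authors' threshold, which was not tested. No paired analysis was possible because each peak list used here combines its replicates; the reads were not analysed here. Under 9 alternatives, 60 of 72 counts stayed within 1.5 times of the reported ones. With peaks no narrower than their list's median, 22 regions were left, 5 in gene bodies and 7 in flanks. Of these, 3 counted as proximal-only and 2 as distal-only, and 2 genes had an end-specific region. Those 2 distal-only regions were shared ones of Acvr1, whose proximal peaks of 673 and 703 bp fell below the median. No distal-only region of the main count was left, since those peaks were at most 484 bp wide. With regions given to the gene of the nearest coding start, 33 were left, 13 in gene bodies and 8 in flanks. A flank of 20 kb held 6 flanking regions and one of 100 kb 41, with end-specific regions at 7 genes. Gene ends taken from coding transcripts, an alternative added after seeing the data, gave 16 gene-body and 23 flanking regions. A reciprocal overlap of 50% gave 8 genes with a promoter peak in both lists, and end-specific regions at 5 genes. Both changes were at Grem1, whose promoter is covered in both lists. Its 1 distal peak of 1868 bp faces 2 proximal peaks of 913 and 846 bp, each too narrow to be joined to it at that overlap.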
